A study of Mus musculus with 4 samples.

Results

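The dual-specificity phosphatases *Dusp1*, *Dusp2*, *Dusp4*, *Dusp5*, *Dusp6*, *Dusp7* and *Dusp10*, the Sprouty genes *Spry1* and *Spry2*, and the Sprouty-related gene *Spred1* were followed in RNA-seq of mouse hearts at postnatal day 7 (P7). These 10 genes were taken by symbol from a table of 24454 genes. The list was chosen by what the genes do and with their Ctrl and miR-128OE counts already known. Every difference between the 2 conditions in them is therefore given as a description, without a p-value. Where calls by a test are given for these genes, the share over all genes stands beside them and nothing is read from them. The miR-128OE hearts carried α-MHC-tTA together with miR-128TetRE, a Tet-off pair in which the α-myosin heavy chain promoter drives the tetracycline transactivator in cardiomyocytes (CMs) and the transactivator switches on *miR-128* unless doxycycline is given. Ctrl hearts carried miR-128TetRE without the transactivator, so the responder allele was common to both groups and the transactivator was present in miR-128OE hearts alone. Each group had 2 libraries from total RNA of hearts (WH7 and WH8 for Ctrl, WH9 and WH10 for miR-128OE), and the doxycycline schedule of these P7 mice and the number of hearts per library are not given in the sources used here.

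Growth factors, stress and stretch activate the MAP kinases ERK, JNK and p38 by phosphorylation of a threonine and a tyrosine in their activation loop. Dual-specificity MAP kinase phosphatases remove both phosphates, and because several of their genes are switched on by the kinases they inactivate, they act as feedback brakes. Sprouty and Spred proteins act further upstream, between receptor tyrosine kinases and the ERK cascade, and are also induced by the pathway. In the heart these brakes are known for limiting ERK, JNK and p38 activity during growth and hypertrophy.

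Library totals ranged from 8096870 to 14359838 counts, and values below are normalized counts, which are counts scaled with TMM factors to the mean effective library size. Some facts about the 4 libraries touch all values that follow. Counts of *Xist*, the RNA that coats the inactive X of females, were 14543 and 11339 in Ctrl against 94 and 132 in miR-128OE hearts, while the Y-linked *Ddx3y* had 13 and 7 against 1442 and 1768, so condition and sex cannot be told apart. The microRNA genes that encode *miR-128* had almost no reads, with 0 counts of *Mir128-1* in every library and 0, 0, 2 and 10 counts of *Mir128-2*, and standard RNA-seq libraries do not measure a mature microRNA. The summed level of 7 CM markers was 42128 and 44728 CPM, where each count is divided by its library's effective size, in Ctrl and 59147 and 57792 in miR-128OE hearts, that of 7 endothelial markers 1791 to 1876, that of 7 fibroblast markers 6316 to 9708, and that of 7 macrophage and leukocyte markers 84.8 to 114. The markers of atrial myocytes, from chambers above the ventricles, summed to 5883 CPM in WH7 and to 701, 2108 and 2707 CPM in WH8, WH9 and WH10. Of the erythroid markers, *Hba-a1*, *Hba-a2*, *Hbb-bs* and *Hbb-bt* were at 0 in all libraries, and the 6-gene list summed to 39.0 and 27.2 against 72.4 and 65.2 CPM. Lymphocyte markers summed to 10.6 to 13.1 CPM, and smooth muscle and pericyte markers to 1877 and 1743 against 2241 and 2564 CPM. By the edgeR test, 3 of 7 CM markers rose and 1 fell, 2 of 7 endothelial markers rose and 2 fell, 2 of 6 smooth muscle and pericyte markers rose and 1 fell, and 1 of 2 tested erythroid markers rose. In such bulk samples fewer cells of a type and less RNA per cell cannot be told apart, and the part of these shifts in the results below was not tested.

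The overexpressed microRNA and the matches to its seed in these genes are shown first, because *miR-128* is what the transgene adds. The mature miR-128-3p has its seed, bases 2 to 8, in capitals. It comes from RefSeq on GRCm38.p6, where *Mir128-1* places it at chr1:128202404-128202424 on the + strand. A seed match was counted where the longest 3′UTR of a gene (GENCODE M21, GRCm38) held CACTGTG or the letters ACTGTGA, and a stretch with both in one run of 8 bases was counted as an 8mer. Matches were found in 3 of 10 genes, in *Dusp5*, *Spry1* and *Spry2*, against 31.0% of 13463 tested genes with a 3′UTR. Each of the 3 was the 7-base form ACTGTGA, with 0 8mers, a form that 6.02% of the tested genes hold. The matched bases are in capitals, and each site lies in the last exon.
miR-128-3p: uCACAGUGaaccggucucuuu
*Dusp5* 3′UTR, chr19:53541353-53541375, + strand, exon 4 of 4: caagagcaACTGTGAtttttgtt
*Spry1* 3′UTR, chr3:37643663-37643685, + strand, exon 3 of 3: aggagtggACTGTGAaactgcac
*Spry2* 3′UTR, chr14:105892336-105892358, − strand, exon 2 of 2: tatttgcaACTGTGAaaaaaaaa
The matches began 39 bases into the 1109-base 3′UTR of *Dusp5*, 120 bases into the 1047-base 3′UTR of *Spry1* and 453 bases into the 856-base 3′UTR of *Spry2*. A match is a description of letters and was not tested for binding.

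A pair of other short elements is printed because both occur in *Dusp1*, the gene with the largest difference of the 10. One is the AU-rich element TTATTTA, known from short-lived mRNAs of early-response genes. The 690-base 3′UTR of *Dusp1* held 4 matches, the first pair of which overlap each other, *Dusp10* held 1 match, and the other 8 genes held 0, while 27.4% of the tested genes held at least 1. The shorter pentamer ATTTA was denser in *Dusp2* (6.88 per kb of 3′UTR) than in *Dusp1* (5.8 per kb), beside a median of 1.31 per kb over the tested genes. All of the *Dusp1* matches lie in exon 4 of 4 on the − strand of chromosome 17.
*Dusp1* 3′UTR, chr17:26506163-26506185: gctggtccTTATTTAtttaacac
*Dusp1* 3′UTR, chr17:26505874-26505896: ttttacctTTATTTAtttttgtg
*Dusp1* 3′UTR, chr17:26505678-26505700: atgtttgtTTATTTAtgatctga
*Dusp10* 3′UTR, chr1:184075521-184075543, + strand: acaaaaatTTATTTAaaaaatat
The other is the cAMP response element (CRE), TGACGTCA, the palindrome bound by CREB-family factors. It was searched on both strands in RefSeq promoters of 300 bases (GRCm38.p6), which were matched for 9 of the 10 genes, all but *Dusp4*. Of these 9 promoters only that of *Dusp1* held the CRE, 143 bases before the start, against 1.88% of 27025 promoters. The 5-base core TGACG, which the full CRE contains, was found in *Dusp1*, *Dusp2* and *Dusp5*, and in 21.0% of all promoters. The CArG box, the site of SRF, occurred among the 9 in the promoter of *Dusp5* alone, as a pair beginning 82 and 72 bases before the start whose printed windows overlap, against 1.57% of all promoters. The capitals mark the motif.
*Dusp1* CRE, chr17:26508600-26508623, − strand: agggcgggTGACGTCAccgcccgg
*Dusp5* first CArG box, chr19:53529055-53529080, + strand: ggaaatacCCATATTTGGccttatat
*Dusp5* second CArG box, chr19:53529065-53529090, + strand: atatttggCCTTATATGGgcactcac
The AP-1 site TGACTCA (5.17% of promoters), the ETS site with the letters CCGGAAGT (4.0%) and the TATA box, searched as TATAAA (14.2%), gave 0 matches in the 9 promoters, which says only that these letters are not in these windows.

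*Dusp1* encodes the nuclear phosphatase MKP-1, an early-response gene product that acts on p38, JNK and ERK (Entrez 19252, chr17:26505591-26508472). Its level in Ctrl hearts was 588 normalized counts in WH7 and 541 in WH8, and in miR-128OE hearts it was 3044 in WH9 and 3023 in WH10. Both miR-128OE libraries lay far above both Ctrl libraries, and the libraries within a group lay close together. The means were 565 ± 33 in Ctrl and 3033 ± 14.6 in miR-128OE hearts (SD, n = 2 each), a 5.36-fold difference (log2 fold change 2.42, SE 0.08). Ordered by log2 fold change, *Dusp1* stood at place 43 among the 14266 genes tested. The values rest on 643 and 383 raw counts in Ctrl and 3074 and 3594 in miR-128OE hearts.

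*Dusp2*, *Dusp4* and *Dusp5* encode the other inducible nuclear phosphatases, of which the *Dusp5* product acts on ERK alone, and all 3 were far scarcer than *Dusp1*. *Dusp2*, best known from activated immune cells (Entrez 13537, chr2:127336159-127338377), had 53.0 and 32.5 normalized counts in Ctrl and 26.7 and 30.3 in miR-128OE hearts. *Dusp5* (Entrez 240672, chr19:53529145-53541809) had 19.2 and 21.2 in Ctrl and 26.7 and 24.4 in miR-128OE hearts. *Dusp4* (Entrez 319520, chr8:34807610-34819894) had 18.3 and 21.2 in Ctrl and 17.8 and 19.3 in miR-128OE hearts. The libraries did not overlap between conditions for *Dusp2*, which was lower in miR-128OE hearts, or for *Dusp5*, which was higher, and they overlapped for *Dusp4*. The log2 fold changes were −0.62 (SE 0.33) for *Dusp2*, 0.34 (SE 0.35) for *Dusp5* and −0.07 (SE 0.37) for *Dusp4*, so the SE exceeded the change in *Dusp4* and *Dusp5*. These genes rest on 15 to 58 raw counts per library. The *Dusp2* difference leaned on 1 Ctrl library: without WH7 its log2 fold change was −0.18, and *Dusp4* turned to 0.03 without WH8.

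*Dusp6* and *Dusp7* encode the cytoplasmic phosphatases MKP-3 and MKP-X, which select ERK over the other MAP kinases. *Dusp6* (Entrez 67603, chr10:99263231-99267489) had 366 and 383 normalized counts in Ctrl and 608 and 602 in miR-128OE hearts. The groups did not overlap, and the means of 374 ± 12.2 and 605 ± 4.03 (SD, n = 2 each) differed 1.62-fold (log2 fold change 0.69, SE 0.10). *Dusp7* (Entrez 235584, chr9:106368560-106375724) had 652 and 606 in Ctrl and 769 and 666 in miR-128OE hearts. Its miR-128OE libraries were also both above the Ctrl libraries, but the nearest pair, 652 and 666, lay closer together than the libraries within either group (log2 fold change 0.19, SE 0.10). In normalized counts, which are not corrected for length, *Dusp6* was the lower of the pair in every library. The ratio of *Dusp6* to *Dusp7* was 0.561 and 0.632 in Ctrl and 0.79 and 0.904 in miR-128OE hearts. As CPM per kb of transcript, *Dusp6* had 18.5 and 18.3 in miR-128OE hearts, against 20.3 and 17.6 for *Dusp7*. In Ctrl hearts these values were 11.1 and 11.6 against 17.2 and 16.0.

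*Dusp10* encodes MKP-5, which prefers JNK and p38 over ERK (Entrez 63953, chr1:184034381-184075636). Its level was 96.0 and 94.7 normalized counts in Ctrl and 119 and 90.8 in miR-128OE hearts. One miR-128OE library lay above and the other below both Ctrl libraries, so the groups overlapped. The log2 fold change was 0.13 (SE 0.20), and it turned to −0.06 without WH9.

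*Spry1* and *Spry2* encode membrane-bound inhibitors of ERK signaling from growth factor receptors. *Spry1* (Entrez 24063, chr3:37639947-37644599) had 531 and 478 normalized counts in Ctrl and 664 and 654 in miR-128OE hearts. Both miR-128OE libraries exceeded both Ctrl libraries, with means of 505 ± 37.9 and 659 ± 7.06 (SD, n = 2 each) and a 1.30-fold difference (log2 fold change 0.38, SE 0.09). *Spry2* (Entrez 24064, chr14:105891947-105896819) had 621 and 628 in Ctrl and 642 and 657 in miR-128OE hearts. Its means, 624 ± 4.66 and 649 ± 10.8 (SD, n = 2 each), were 1.04-fold apart (log2 fold change 0.06, SE 0.09), and its sign turned when libraries were scaled by their totals alone (−0.04). The ratio of *Spry1* to *Spry2* in normalized counts, which are not corrected for length, was 0.856 and 0.761 in Ctrl and 1.04 and 0.996 in miR-128OE hearts. Per length *Spry1* stayed the lower of the pair in both conditions, as given with the levels per kb.

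*Spred1* encodes an inhibitor that recruits neurofibromin to Ras (Entrez 114715, chr2:117121071-117182279). It had 699 and 759 normalized counts in Ctrl and 685 and 663 in miR-128OE hearts. Both miR-128OE libraries were below both Ctrl libraries, by a margin smaller than the gap between the Ctrl libraries (log2 fold change −0.11, SE 0.09). Of the 3 genes with a seed match to miR-128-3p, printed above, none was lower in miR-128OE hearts, with log2 fold changes of 0.34 for *Dusp5*, 0.38 for *Spry1* and 0.06 for *Spry2*. On the opposite strand *Dusp5* overlaps AC137853.2, *Spry1* overlaps Gm42922 and *Dusp1*, in a longer GENCODE isoform alone, overlaps Ergic1, and the handling of strand in the counting is not given in the sources used here, so reads of such pairs cannot be told apart.

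**Figure D1:**
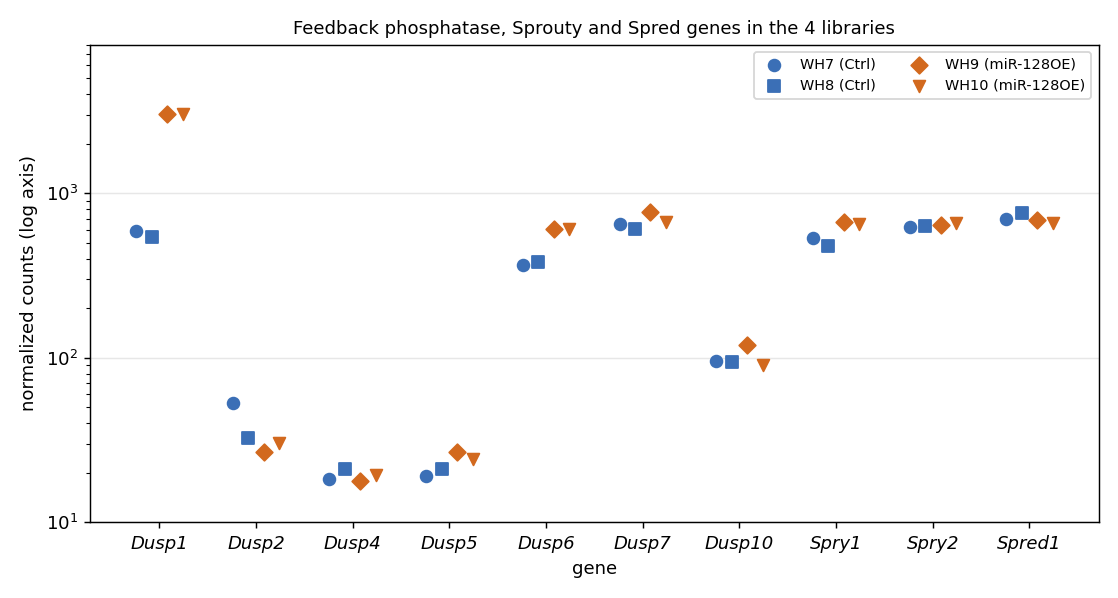
Normalized counts on a log axis for the 10 genes, with 1 point per library, blue for Ctrl (WH7 and WH8) and orange for miR-128OE (WH9 and WH10). The miR-128OE points of *Dusp1* (3044 and 3023) stand well above its Ctrl points (588 and 541), while those of *Spry2* nearly coincide.

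By the quasi-likelihood test of edgeR with Benjamini-Hochberg adjustment over 14266 genes, 3 of the 10 genes were past the threshold of 0.05, all higher in miR-128OE hearts (*Dusp1*, *Dusp6* and *Spry1*). Across all genes tested 31.5% passed in either direction, 16.5% as higher and 15.0% as lower. None of the 10 was called lower, with 0 also at an unadjusted p under 0.05. DESeq2 called 0 lower and the same number higher (3). Over all 14266 genes, 3115 were higher and 3014 lower at an unadjusted p under 0.05, and DESeq2 called 1711 higher and 1403 lower. These all-gene numbers are also the background for such counts in the lists below. *Spry1* was not called with total counts or without WH9 or WH10, at log2 fold changes of 0.28, 0.38 and 0.41. In 6 genes both miR-128OE libraries lay above both Ctrl libraries, as they did in 33.7% of all genes, and in 8 genes the groups did not overlap in either direction, as in 68.1% of all genes. Since the same values were in view when the genes were picked, nothing is read from these counts. Their median log2 fold change was 0.16, beside −0.014 over all genes, and the total-count scaling moved the latter to −0.11.

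**Figure D2:**
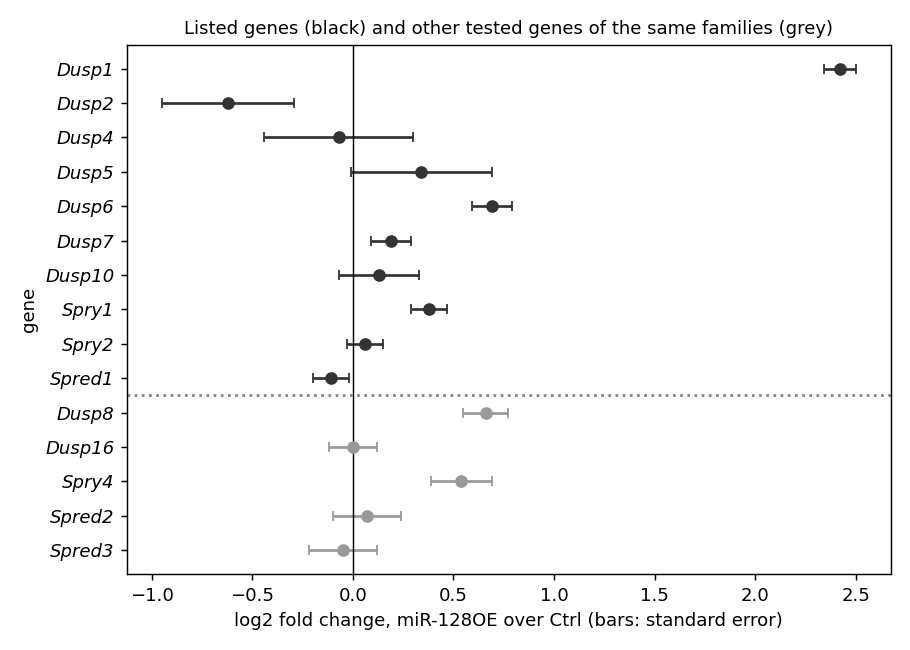
Log2 fold change of miR-128OE against Ctrl hearts for each of the 10 genes (black) and the 5 other tested typical phosphatase, Sprouty and Spred genes (grey, under the dotted line). Error bars are 1 SE, derived from the F statistic of the edgeR test. *Dusp1* lies at 2.42, *Dusp6* at 0.69 and *Spry1* at 0.38, and the bars of *Dusp4*, *Dusp5*, *Dusp10* and *Spry2* reach 0.

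Compared per length, as CPM per kb of the longest coding transcript, the order of the levels changed between conditions at its top. In Ctrl hearts *Spry2* (25.4) and *Dusp1* (24.1) led, followed by *Dusp7* (16.6), *Spry1* (15.4), *Dusp6* (11.4) and *Spred1* (10.3). *Dusp10* (2.90), *Dusp2* (2.25), *Dusp5* (0.693) and *Dusp4* (0.612) formed a low group. In miR-128OE hearts *Dusp1* stood at 129 CPM per kb, above *Spry2* (26.4), *Spry1* (20.2), *Dusp7* (19.0), *Dusp6* (18.4) and *Spred1* (9.51). For some neighbours in this order the means lay closer together than the libraries of one of the pair did. In Ctrl hearts these were *Spry2* and *Dusp1*, *Dusp7* and *Spry1*, *Dusp10* and *Dusp2*, and *Dusp5* and *Dusp4*, and in miR-128OE hearts *Spry1* and *Dusp7*, and *Dusp7* and *Dusp6*. The low group kept its order, with 3.19 for *Dusp10*, 1.5 for *Dusp2*, 0.877 for *Dusp5* and 0.576 for *Dusp4*.

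Summed over the 10 genes, normalized counts were 3643 and 3564 in Ctrl and 6602 and 6430 in miR-128OE hearts. *Dusp1* made up 16.1% and 15.2% of that sum in Ctrl and 46.1% and 47.0% in miR-128OE hearts. Most of the difference in the sum therefore came from 1 gene, and without it the sums were 3055 and 3023 against 3558 and 3407. Within the 7 phosphatases its share went from 32.8% and 31.8% to 66.0% and 67.8%. The 3 Sprouty and Spred genes together held 1851 and 1864 in Ctrl and 1991 and 1974 in miR-128OE hearts. The *Dusp1* to *Dusp6* ratio in normalized counts was 1.61 and 1.41 in Ctrl and 5.01 and 5.02 in miR-128OE hearts. This ratio is of RNA and is not corrected for length, and the proteins were not measured here.

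**Figure D3:**
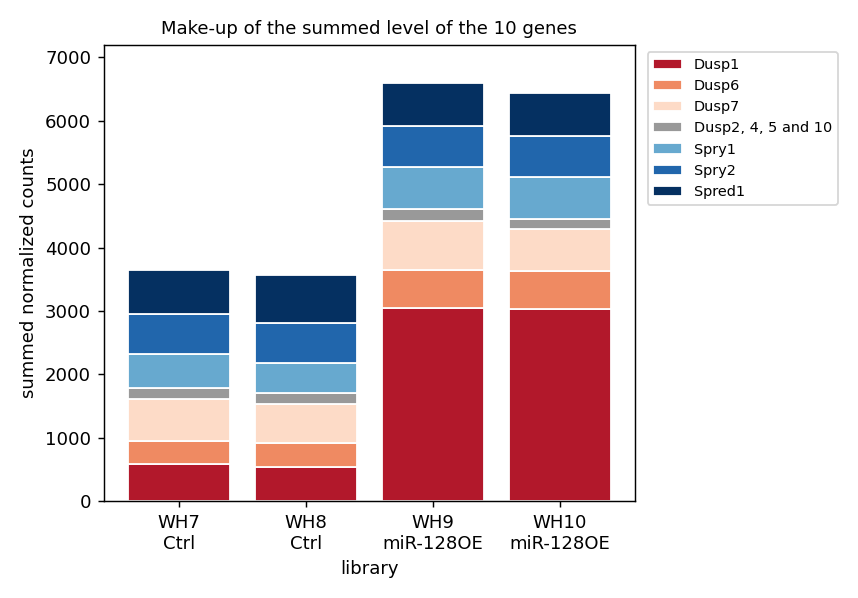
Summed normalized counts of the 10 genes in each library, stacked from the bottom as *Dusp1*, *Dusp6*, *Dusp7*, the other phosphatases together, *Spry1*, *Spry2* and *Spred1*. The *Dusp1* layer takes up 16.1% and 15.2% of the Ctrl bars, and 46.1% and 47.0% of the miR-128OE bars.

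Of the 7 remaining typical MAP kinase phosphatase, Sprouty and Spred genes, 5 were tested, 2 rose and 0 fell, with a median log2 fold change of 0.073. At an unadjusted p under 0.05, 2 were higher and 0 lower, and by DESeq2 1 was higher and 0 lower. The share called higher was 40.0% of only 5 genes, beside 16.5% of all genes. This list was compiled with earlier results of these data known. *Dusp8*, whose product acts on JNK and p38, had 385 and 346 normalized counts in Ctrl and 540 and 622 in miR-128OE hearts (log2 fold change 0.66, SE 0.11, adjusted p = 0.00241). *Spry4* had 188 and 245 against 290 and 331 (0.54, SE 0.15, adjusted p = 0.0243), and this call was lost by DESeq2 (adjusted p = 0.0516), with total counts (0.0545) and without WH7, WH9 or WH10 (0.0886, 0.0658 and 0.155). *Spred2*, with a log2 fold change of 0.07 (SE 0.17, adjusted p = 0.773), did not pass, and *Dusp9* and *Spry3* were too low to test, with at most 3 counts in any library.

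The pathway that these brakes act on was described with further lists, which were also compiled with earlier results of these data known. Among ligands and receptors, 3 rose and 3 fell of 23 tested, with a median log2 fold change of 0.04. *Igf1r*, the receptor of insulin-like growth factors, fell (1769 and 1747 against 1239 and 1232 normalized counts, log2 fold change −0.51, SE 0.08, adjusted p = 0.00125), as did *Kit*, the stem cell factor receptor (−0.78, SE 0.13, adjusted p = 0.00192). *Fgfr3*, a fibroblast growth factor receptor, rose (0.73, SE 0.15, adjusted p = 0.00658). Of this list 26.1% passed, beside 31.5% of all genes, and without WH10 the number called higher was 0 and the *Fgfr3* call was lost (adjusted p = 0.0682).

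In the ERK cascade itself, from adaptors to ERK, 5 genes rose and 0 fell of 21 tested (5 and 1 at an unadjusted p under 0.05, 4 and 0 by DESeq2), with a median of 0.052. Of this list 23.8% passed, fewer than the 31.5% of all genes. *Map2k1*, which encodes the ERK kinase MEK1, went from 401 and 343 to 589 and 520 normalized counts (log2 fold change 0.56, SE 0.12, adjusted p = 0.00637), and the adaptor *Grb2* rose by 0.39 (SE 0.09, adjusted p = 0.0111). With total counts 3 genes of the cascade were called higher, and without WH9 the number was 0, with adjusted p-values of 0.0855 for *Map2k1* and 0.155 for *Grb2*. In the JNK and p38 cascades 3 rose and 3 fell of 15 tested, among them the apoptosis signal kinase *Map3k5* (−0.60, SE 0.11, adjusted p = 0.00382), the p38 kinase *Map2k3* (0.45, SE 0.09, adjusted p = 0.00658) and the JNK1 gene *Mapk8* (0.48, SE 0.10, adjusted p = 0.0071). Without WH9 these cascades had 0 genes called in either direction, with adjusted p-values of 0.0572, 0.0569 and 0.0992 for the 3 genes, and *Map2k3* also lost its call without WH10 (0.0646). Leaving out WH9 lowered the calls over all genes as well, from 2347 to 897 higher and from 2143 to 667 lower. Of 19 kinase substrates and effectors 6 rose and 2 fell, with a median of 0.025. The share called was 40.0% in the JNK and p38 cascades and 42.1% in the substrates and effectors, beside 31.5% of all genes. *Srf*, the factor that binds the CArG box, went from 854 and 796 to 1935 and 1887 normalized counts (1.21, SE 0.08, adjusted p = 2.74e-05), *Mapkapk2*, a p38 effector, rose by 0.75 (SE 0.09, adjusted p = 0.000401) and *Mknk2*, a kinase of the translation factor eIF4E, by 0.50 (SE 0.09, adjusted p = 0.00299, or 0.0557 without WH9). Without WH9 2 of the substrates and effectors were called higher and 1 lower, and without WH10 these numbers were 3 and 0.

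Of 9 tested ERK-induced target genes, which serve as slower readouts of the pathway, 0 rose and 2 fell (22.2%, beside 31.5% of all genes called), with a median of −0.20 (2 higher and 2 lower at an unadjusted p under 0.05; 0 and 1 by DESeq2). The ETS factor *Etv1* fell (349 and 372 against 223 and 243 normalized counts, log2 fold change −0.63, SE 0.12, adjusted p = 0.00416) and so did the cyclin *Ccnd1* (−0.27, SE 0.09, adjusted p = 0.0369), while *Epha2* had a log2 fold change of 0.38 (SE 0.15, adjusted p = 0.0908). The *Ccnd1* call was lost by DESeq2 (adjusted p = 0.0584) and without WH9 or WH10 (0.103 and 0.386), the *Etv1* call was lost without WH9 (0.0658), and *Epha2* passed without WH8 (0.0381). The number of these genes called lower was 4 without WH7, 0 without WH9 and 1 without WH10. Immediate-early genes respond to stimuli without new protein synthesis. Of 29 tested, 21 (72.4%) rose and 0 fell, with a median of 1.0, beside 16.5% higher and 15.0% lower over all genes. At an unadjusted p under 0.05 the numbers were 23 and 1, and by DESeq2 20 and 0. In this list 8 genes did not pass, and its lowest log2 fold change was −1.4. Leaving out each library in turn gave 17 to 21 that rose. The nuclear receptor *Nr4a1* went from 227 and 230 to 1512 and 1610 normalized counts (2.77, SE 0.09, adjusted p = 4.04e-07), the matricellular gene *Cyr61* from 451 and 356 to 3437 and 3624 (3.12, SE 0.11, adjusted p = 5.75e-07) and *Fos* from 69.5 and 66.4 to 599 and 594 (3.13, SE 0.13, adjusted p = 1.36e-06). Of 14 other brakes of Ras and ERK, 2 rose and 3 fell (35.7%, beside 31.5% of all genes called). Those called included the cascade inhibitor *Pebp1* (0.76, SE 0.09, adjusted p = 0.000322) and the Ras GTPase-activating proteins *Rasa2* (−0.77, SE 0.10, adjusted p = 0.000568) and *Rasa1* (−0.61, SE 0.10, adjusted p = 0.00251). Without WH10, 1 of these brakes was called higher.

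**Figure D4:**
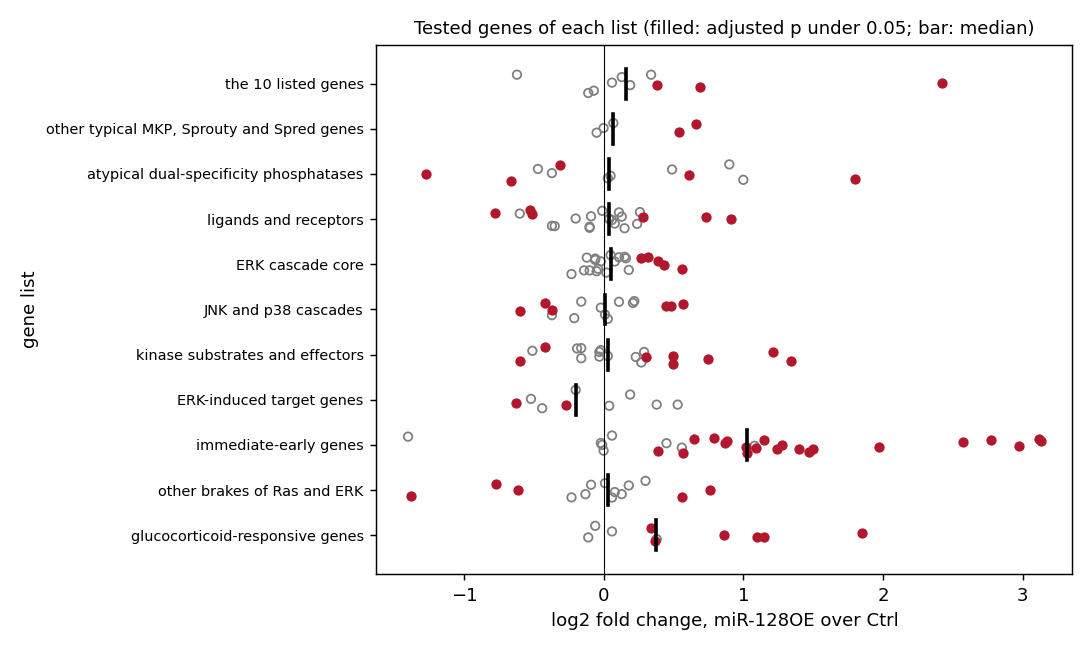
Log2 fold change of miR-128OE against Ctrl hearts for every tested gene of each list, 1 point per gene, filled where the adjusted p of the edgeR test was under 0.05, with a bar at each list's median. The immediate-early genes have a median of 1.0, the glucocorticoid-responsive genes 0.38 and the 10 genes 0.16, and the other lists have medians from −0.20 to 0.073.

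Likeness of profile was measured as the root mean square difference of log2 CPM, centred on the mean of the 4 libraries, over 157 tested genes of the lists. The gene nearest to *Dusp1* was the early-response factor *Egr1*, at 0.13, with 501 and 383 normalized counts in Ctrl and 2622 and 2688 in miR-128OE hearts, and 4 of all tested genes were as near. The gene nearest to *Dusp6* was the atypical phosphatase *Dusp3* (0.048). *Dusp2* lay nearest to *Fgfr2* (0.09), *Dusp5* to *Rps6ka3* (0.024), *Dusp7* and *Dusp10* to *Map2k6* (0.038 and 0.052), *Spry2* to *Mapk9* (0.029) and *Spred1* to *Flt1* (0.021). Profiles over 4 libraries in 2 groups follow mainly the difference between the groups, and for the 7 genes after *Dusp1* in this comparison 27 to 117 of all tested genes lay as near.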

How the data were processed

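Per the labels and the methods of the study, reads of low quality were discarded, TopHat2 placed the remaining ones on mm10, and known genes were counted in Bioconductor, and the authors deposited the raw counts for each gene and library. The gene models, the handling of strand and the treatment of reads that fit several genes are not given in the sources used here. The counts were filtered with the defaults of filterByExpr (14266 of 24454 genes kept), scaled with TMM factors and tested by the quasi-likelihood method of edgeR 4.0.16 (R 4.3.3), with Benjamini-Hochberg adjustment over all genes kept and a threshold of 0.05. This test gives no SE, so the SE of a log2 fold change was taken as its absolute value over the square root of the F statistic. The common biological coefficient of variation was 8.78%. A detection floor of 3 counts corresponds to 0.209 to 0.371 CPM and covers counting error only, since PCR reads without molecular identifiers are not independent molecules. The labels do not say whether the 2 libraries of a group came from separate animals, so p-values measure the spread between libraries, which may be technical. Replicates differed by more than sampling noise (chi-square per degree of freedom 11.7 for Ctrl and 5.55 for miR-128OE).

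The 10 genes and all gene lists were chosen with earlier results of these data known. Genes named are the 10, the 3 tested genes with the smallest p in each other list, the gene nearest in profile to each of the 10, and the markers at 0. A few genes that the rule picks are left out here. *Spred2*, *Dusp9* and *Spry3* are further members of their list, and *Xist*, *Ddx3y* and the *miR-128* genes are checks of the libraries. The alternatives were edgeR's exact and likelihood ratio tests, DESeq2 1.42.0, other size factors, other filters on low counts, each library left out, and 8mer sites alone. Python 3.11.15 was used for sequences and summaries. Sequences came from GENCODE M21 transcripts and RefSeq tables of GRCm38.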

Additional observations from a re-analysis of the deposited data

How the results depend on the processing

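Of 120 log2 fold changes of the 10 genes over 12 alternative settings, 112 moved by less than their SE. The exact and likelihood ratio tests use the TMM factors of the main fit, so fold changes could hardly differ there. The sign turned in 3 genes, each under 1 setting: *Dusp4*, *Dusp10* and *Spry2*. Genes with 15 to 58 counts per library (*Dusp2*, *Dusp4*, *Dusp5*) are limited by depth. No paired analysis was possible because the labels give no replicate numbers. With 1 library left out, the lone library of a group is assumed to vary like the other group.

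Over all genes, 2347 were called higher (897 to 2654 with 1 library left out) and 2143 lower (667 to 2384, and 1403 by DESeq2). For the remaining typical phosphatase, Sprouty and Spred genes, 2 were called higher, but 1 by DESeq2, 1 with total counts and 1 to 2 with a library left out. With a library left out, the ligands and receptors called higher ranged from 0 to 4, ERK cascade genes called higher from 0 to 6 and lower from 0 to 2, JNK and p38 genes called higher from 0 to 4 and lower from 0 to 5, substrates called higher from 2 to 6 and lower from 0 to 2, ERK-induced genes called higher from 0 to 1 and lower from 0 to 4, and other brakes called higher from 1 to 3. In the ERK cascade, 3 were called higher and 1 lower with total counts, and 1 was called lower with upper-quartile factors. Of the ERK-induced genes, 1 was called lower by DESeq2, and of the immediate-early genes 1 was called lower by the exact test and 1 by the likelihood ratio test. With 8mers alone, 0 of the 10 genes held a *miR-128* site. *Spred2* turned to −0.03 with total counts, and ranged from −0.02 to 0.19 with a library left out. The fits with 1 library fewer rest on fewer samples, and the cause of the other shifts was not tested. In each list other than the 10 genes and the markers, only the 3 genes with the smallest p were followed singly. Of their 360 values, 339 kept their direction and side of the threshold and 18 lost the call. Another 1 gained the call and 2, both of *Spred2*, turned. As these genes were picked by their p, the 339 does not describe the remaining genes of the lists.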

Other observations

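The atypical dual-specificity phosphatases, small relatives that lack the MAP kinase binding domain of the typical ones, changed in both directions. Of 12 tested, 2 rose and 3 fell in miR-128OE hearts, with a median log2 fold change of 0.039 (4 and 4 at an unadjusted p under 0.05, and 2 and 2 by DESeq2). The share called was 41.7%, beside 31.5% of all genes. *Dusp18* rose from 265 and 297 to 1001 and 945 normalized counts (1.80, SE 0.10, adjusted p = 7.81e-06) and *Dusp3*, whose product VHR acts on ERK and JNK, from 2135 and 2133 to 3232 and 3289 (0.61, SE 0.08, adjusted p = 0.000498). *Dusp23* fell from 245 and 202 to 89.1 and 97.6 (−1.27, SE 0.17, adjusted p = 0.000684). These p-values come from the quasi-likelihood test of edgeR, with Benjamini-Hochberg adjustment.

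*Dusp1* is also known as a glucocorticoid-responsive gene. Of 10 other genes known for that response, 6 rose and 0 fell, with a median log2 fold change of 0.38 (7 and 0 at an unadjusted p under 0.05; 5 and 0 by DESeq2). *Zbtb16* rose from 62.2 and 53.7 to 222 and 203 normalized counts (1.85, SE 0.18, adjusted p = 0.000142), *Sgk1* from 787 and 780 to 1749 and 1723 (1.15, SE 0.08, adjusted p = 2.89e-05) and *Mt1* from 736 and 844 to 1423 and 1433 (0.86, SE 0.09, adjusted p = 0.000234), by the same test and adjustment. Across all genes 16.5% were called higher and 15.0% lower. In this list 4 genes did not pass, and its lowest log2 fold change was −0.11. With total counts 4 of the list were called higher. Any part of glucocorticoids in these differences was not tested.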
